A study of Mus musculus with 5 samples.

Results

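The genes described here are 8 members of the activin system that were chosen by name: the activin and inhibin beta subunits Inhba, Inhbb, Inhbc and Inhbe, their extracellular antagonist follistatin (Fst), the type II activin receptors Acvr2a and Acvr2b, and the type II TGF-beta receptor Tgfbr2. They are 8 of the 31053 genes counted in 5 mouse liver single-cell libraries. Their levels were read in 2 classes of cell barcodes. Hepatocytes were barcodes with at least 5000 unique molecular identifiers (UMIs, 1 per captured mRNA molecule), 10% to 30% mitochondrial UMIs and at least 1% of UMIs from Alb, Apoa1 and Ttr, 5691 in all. Endothelial barcodes had at least 1000 UMIs and 500 genes, under 30% mitochondrial UMIs, no Ptprc UMI and at least 3 of the 7 markers Stab2, Ptprb, Gpr182, Kdr, Egfl7, Clec4g and Oit3, 483 in all.

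All libraries came from C57BL/6J mice, with no transgene named. The 5 groups were the liver at postnatal day 14 (P14), an adult control liver, and adult livers taken 24 h, 48 h or 96 h after partial hepatectomy, an operation that takes out most of the organ and sets off its regrowth, in animals that were 8 weeks old at surgery. Each group was 1 library, and the sources used here do not give how many animals, or of which sex, stood behind it. One shared protocol text counts the adult control among the operated animals although its own title, source and age name it an uninjured adult, and its lane code differs from that of the other libraries. The livers were perfused to free the cells, dead cells were depleted, and the rest went into droplet libraries. With 1 library per group there is no replicate check: every interval below is a 95% interval that covers counting error only, no p-value was computed, and a difference between libraries cannot be told apart from a difference between animals, preparations or lanes.

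Activins are dimers of beta subunits and belong to the TGF-beta superfamily. They bind a type II receptor, ACVR2A or ACVR2B, which recruits a type I receptor such as ACVR1B, and the pair phosphorylates SMAD2 and SMAD3, which enter the nucleus with SMAD4. TGFBR2 plays the same part for TGF-beta ligands, and follistatin wraps around activin and keeps it from its receptors. In the liver, Inhbc and Inhbe are made mostly by hepatocytes, activin A (the dimer of INHBA) is known as a brake on hepatocyte growth, and follistatin given after hepatectomy is known to hasten regrowth.

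In the GENCODE M21 annotation of GRCm38, Inhba lies on chromosome 13 (chr13:16011851-16031621, plus strand) and Fst on the same chromosome far from it (chr13:114452290-114458951, minus strand). Inhbb is on chromosome 1 (chr1:119415465-119422248, minus strand). Inhbc (chr10:127356322-127370431) and Inhbe (chr10:127348857-127354411) are neighbours on the minus strand of chromosome 10, with 1910 bp and 0 annotated genes between them. Acvr2a is on chromosome 2 (chr2:48814109-48903269, plus strand), and Acvr2b (chr9:119402118-119434995, plus strand) and Tgfbr2 (chr9:116084293-116175360, minus strand) are both on chromosome 9. Exons of Acvr2a overlap those of Orc4 on the other strand, Fst overlaps Gm47040 and Inhbc overlaps Gm47200. Whether the counting used strand is not given in the sources used here, so the counts of these 3 genes are uncertain to that extent: hepatocytes held 208 to 705 UMIs of Orc4 per library, 0 to 7 of Gm47040 and 0 to 4 of Gm47200.

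The 250 bases before the RefSeq start of 3 members are shown because their levels separated most clearly below: Inhba was high in the P14 and 96 h hepatocytes, Inhbb in the P14 hepatocytes, and Inhbb and Tgfbr2 were both high in the 24 h and 48 h endothelial barcodes. RefSeq's promoter table (GRCm38.p6) matched 7 of the 8 members, all except Fst. Sequences are 5′ to 3′ on the gene's strand, positions are counted back from the start, and capitals mark the matches named after each line.
Inhba (chr13:16011601-16011850, plus strand): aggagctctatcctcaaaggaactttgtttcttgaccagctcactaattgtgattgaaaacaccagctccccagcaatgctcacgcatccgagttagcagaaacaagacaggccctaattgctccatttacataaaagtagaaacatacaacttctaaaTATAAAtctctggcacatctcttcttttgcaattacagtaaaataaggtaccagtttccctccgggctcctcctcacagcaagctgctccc
Inhbb (chr1:119422249-119422498, minus strand): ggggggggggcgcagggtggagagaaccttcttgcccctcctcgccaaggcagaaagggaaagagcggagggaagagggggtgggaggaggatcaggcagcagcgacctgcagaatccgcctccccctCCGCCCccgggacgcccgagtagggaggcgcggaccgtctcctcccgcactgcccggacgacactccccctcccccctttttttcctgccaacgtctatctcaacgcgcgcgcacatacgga
Tgfbr2 (chr9:116175364-116175613, minus strand): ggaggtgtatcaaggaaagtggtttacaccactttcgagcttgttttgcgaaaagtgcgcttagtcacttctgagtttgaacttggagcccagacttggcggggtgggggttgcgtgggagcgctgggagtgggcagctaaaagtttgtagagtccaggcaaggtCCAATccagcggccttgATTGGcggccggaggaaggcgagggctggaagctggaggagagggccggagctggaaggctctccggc
The capitals in Inhba are a TATAAA at -91 to -86. Those in Inhbb are a GGGCGG (GC box) on the opposite strand at -122 to -117. Those in Tgfbr2 are 2 copies of CCAAT, at -85 to -81 and, on the opposite strand, at -68 to -64. Searched on both strands over 32851 RefSeq promoters of the same length, TATAAA occurred in 12.4%, GGGCGG in 32.7% and CCAAT in 33.8%. The Inhba window held 3 CpG dinucleotides (43.2% G or C), the Inhbb window 21 (68%) and the Tgfbr2 window 12 (58.4%), against a median of 6. The search also took in the SMAD-related CAGACA, the CRE TGACGTCA, the AP-1 site TGANTCA and the C/EBP-ATF site TGATGNAAN, which occurred in 17.1%, 1.55%, 6.75% and 3.44% of all promoters: none of these 4 was in the windows shown. A match is a run of letters and not a measured binding site.

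Library totals ran from 80927744 to 136110607 UMIs, and any pair of libraries shared at most 2 of the barcodes used. Hepatocytes numbered 2106 at P14, 925 in the control library, 1170 at 24 h, 719 at 48 h and 771 at 96 h. Their median depth was highest at P14 (38922.5 UMIs) and 48 h (35432) and lowest in the adult control (18527). Levels are given in CPM, UMIs per 1000000 of a class's summed UMIs without the 13 mitochondrially encoded genes. All 6 hepatocyte markers tested were present in every library's hepatocytes, at a summed 15491 to 20348 CPM, against 4.06 to 12.8 for the endothelial markers and 0.960 to 7.36 for the macrophage markers. Neutrophil markers summed to 27.1, 10.7, 101, 188 and 21.2 CPM in hepatocytes from P14 to 96 h, and erythroid markers to 56.0, 245, 168, 206 and 115 CPM, with all 4 markers of each list present in every library. Barcodes that met the hepatocyte rule and also the rule for neutrophil or erythroid barcodes (3 or more of that list's markers and fewer than 3 of any other non-hepatocyte list) numbered 23, 233, 184, 324 and 43. The median share of Alb, Apoa1 and Ttr was 11.2% of a P14 hepatocyte's UMIs and 2.10% to 5.77% of an adult one's, so the P14 hepatocytes stood apart on the genes that chose them.

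In hepatocytes the 4 beta subunits followed 4 different courses. At P14, Inhba was 2.63-fold (2.26 to 3.09) and Inhbb 511-fold above the adult control. After hepatectomy, the control was more than 2-fold above Inhbe's level at 24 h and 48 h and level with it at 96 h, where Inhba was 3.00-fold (2.53 to 3.58) above the control. On the scale of log2(level + 1), and among genes with at least 5 CPM in either library, 2 of the 8 members were at least 2-fold higher at P14, against 7.89% of all 9011 genes tested, and 1 was at least 2-fold lower, against 13.8%. At 24 h and 48 h none of 7 members tested was higher, against 8.51% and 8.3% of genes, and 1 (Inhbe) was lower, against 7.13% and 7.63%. At 96 h 1 of 7 (Inhba) was higher and none lower, against 4.07% and 1.88%. The median log2 difference of the members tested was -0.14, -0.31, -0.38 and -0.05 at P14, 24 h, 48 h and 96 h, beside -0.26, -0.00086, -0.08 and 0.04 for all genes. All 4 comparisons share the adult control library.

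**Figure D1:**
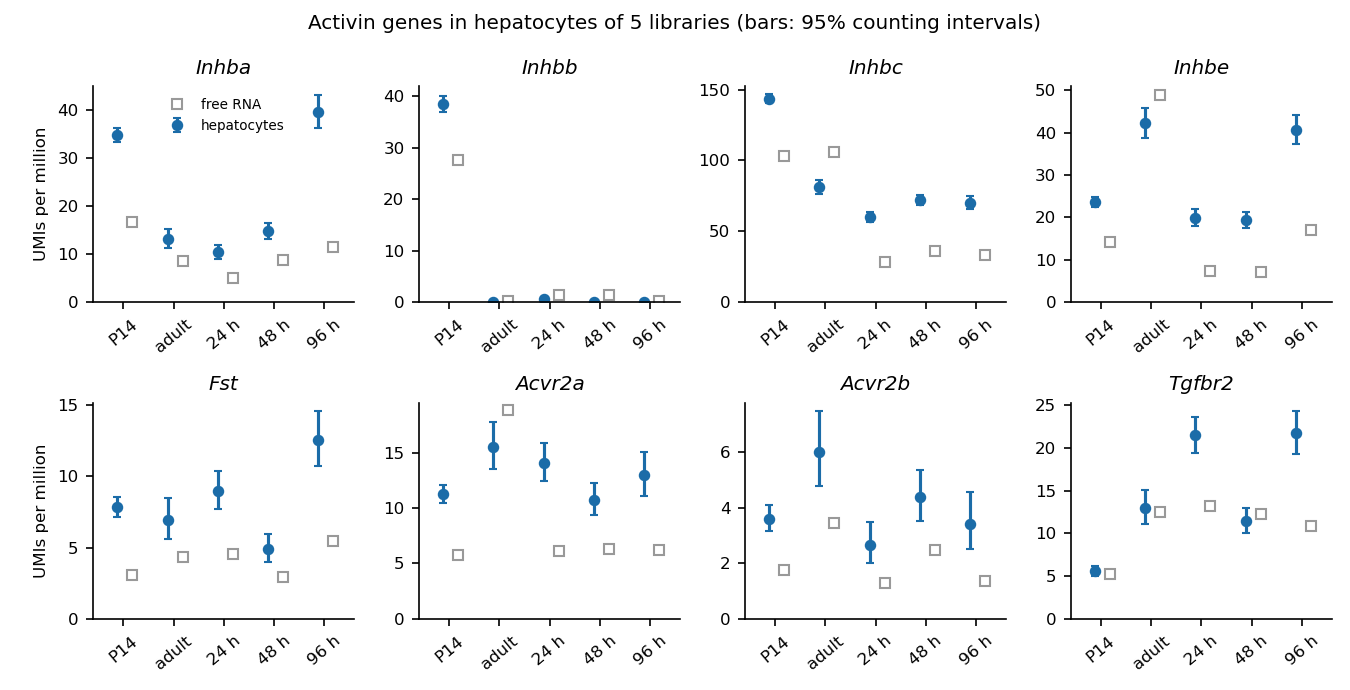
Levels of the 8 genes in hepatocytes (filled points, with 95% counting intervals as bars) and in free RNA (open squares) of the 5 libraries, in CPM on linear axes that differ between genes. Inhbb lies at 38.4 at P14 and under 1 in hepatocytes of every adult library, Inhba is highest at 96 h and P14, and Inhbe is lowest at 24 h and 48 h.

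Inhba encodes the subunit of activin A. Its hepatocyte level was 34.8 CPM at P14 (2247 UMIs), 13.2 in the adult control (176 UMIs), 10.5 (24 h), 14.8 (48 h) and 39.7 (96 h) (533 UMIs). The 96 h and P14 libraries were therefore high, and the 3 others lay between 10.5 and 14.8. The 24 h level was 1.26-fold (1.03 to 1.55) below the control, while the interval at 48 h included equality (1.12-fold, 0.93 to 1.36). From 48 h to 96 h the level was 2.67-fold higher (2.32 to 3.09), past 2-fold, as were 4.38% of genes in that comparison. After thinning every hepatocyte to 5000 UMIs, the share with at least 1 Inhba UMI was 13.0% at P14, 4.22% in the control, 3.68% (24 h), 5.98% (48 h) and 13.9% (96 h), the same order of libraries at the top.

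Inhbb encodes the subunit of activin B. P14 hepatocytes held 2480 Inhbb UMIs, a level of 38.4 CPM, whereas the adult libraries held 1 UMI (control), 10 (24 h), 0 (48 h) and 1 (96 h). The control level rested on that 1 UMI (0.0751 CPM), which gives the 511-fold ratio an interval of 91.7 to 20208. At P14, 63.1% of hepatocytes had at least 1 Inhbb UMI, or 14.2% after thinning to 5000 UMIs. In the thinned adult libraries 2 of 1170 hepatocytes at 24 h (0.171%) and none in the others had one, which allows shares of up to 0.324% in the control, 0.417% at 48 h and 0.389% at 96 h, taking 3 cells as the limit of a count of 0. These limits are for cells with an Inhbb UMI at this depth and not for cells that express the gene. Free RNA at P14, read from barcodes of low UMI rank taken to hold no cell, held Inhbb at 27.5 CPM. No adult library came near the P14 level.

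Inhbc and Inhbe, the neighbouring genes on chromosome 10, encode the subunits of activins C and E, which the liver secretes. Inhbc was at 144 CPM at P14, 81.4 in the control, 60.3 (24 h), 72.0 (48 h) and 69.9 (96 h). P14 was thus the high library, 1.77-fold (1.66 to 1.88) above the control, and no library after surgery reached the control. Inhbe took the other direction at P14: it was at 23.6 CPM there and 42.1 in the control, 1.78-fold (1.62 to 1.97) lower at P14. Its levels after surgery were 19.8 at 24 h, 19.3 at 48 h and 40.6 at 96 h. The control was 2.12-fold (1.86 to 2.42) above 24 h and 2.18-fold (1.92 to 2.49) above 48 h, and the 96 h interval included equality (0.963-fold, 0.854 to 1.08). From 48 h to 96 h Inhbe was 2.10-fold higher (1.84 to 2.40). The 2 neighbours therefore differed in course, with opposite directions from the control at P14. At 96 h the interval of Inhbe included equality, while the control was 1.16-fold (1.07 to 1.27) above 96 h for Inhbc. Whether the 2 genes differed at 96 h was not tested. Neutrophil markers were high in the same 24 h and 48 h hepatocytes in which Inhbe was low. Without the hepatocytes that also met the neutrophil or erythroid rule, Inhbe was at 23.7, 38.8, 19.1, 19.2 and 39.4 CPM from P14 to 96 h, and the control was 2.03-fold above both 24 h (1.74 to 2.37) and 48 h (1.71 to 2.41). With 1 CPM added both differences were then just within 2-fold. The neutrophil markers left in these hepatocytes summed to 91.3 CPM at 24 h and 174 at 48 h, and their part was not tested. Free RNA in the adult control held Inhbe at 48.9 CPM, more than its hepatocytes, and Inhbc at 106. The part of free RNA in the differences was not tested beyond subtracting it, after which the 24 h log2 difference of Inhbe, -1.05 before, was just within 2-fold.

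Fst, whose product binds and neutralises activins, was at 7.82 CPM in P14 hepatocytes, 6.91 in the control, 8.97 (24 h), 4.90 (48 h) and 12.6 (96 h). The 96 h library was the highest, 1.82-fold (1.40 to 2.37) above the control, and the 48 h library the lowest, with the control 1.41-fold (1.05 to 1.89) above it. At 24 h the interval narrowly left out equality (1.30-fold, 1.003 to 1.69), and at P14 it included it (1.13-fold, 0.905 to 1.43). Without the hepatocytes that also met the neutrophil or erythroid rule, 24 h was 1.36-fold (1.02 to 1.85) above the control and the 48 h interval included equality (0.726-fold, 0.500 to 1.05). None of these passed 2-fold, but 96 h was 2.57-fold (2.00 to 3.32) above 48 h. Of the 6 members tested between 48 h and 96 h, Inhba, Inhbe and Fst were at least 2-fold higher at 96 h and none was lower, against 4.38% and 4.24% of genes.

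Among the receptors, Acvr2a was at 11.3, 15.5, 14.1, 10.8 and 12.9 CPM in P14, control, 24 h, 48 h and 96 h hepatocytes. These values lay close together: no library differed from its neighbour in the order of levels beyond counting error, although the control was 1.38-fold (1.18 to 1.61) above P14 and 1.45-fold (1.19 to 1.75) above 48 h. Acvr2b rested on 46 to 232 UMIs per library, with levels of 3.59, 6.01, 2.66, 4.37 and 3.42 CPM. The control was its highest library and 2.25-fold (1.57 to 3.26) above 24 h, a log2 difference of -0.94 once 1 CPM was added to both levels, so it was not counted as 2-fold. Tgfbr2 was at 5.59 CPM at P14 (361 UMIs), 13.0 in the control (173 UMIs), 21.5 (24 h), 11.5 (48 h) and 21.7 (96 h). The control was 2.32-fold (1.93 to 2.79) above P14, and the 24 h and 96 h libraries were 1.65-fold (1.38 to 1.98) and 1.67-fold (1.38 to 2.03) above the control. Free RNA, unscaled, held Tgfbr2 at 5.24, 12.5, 13.2, 12.3 and 10.8 CPM from P14 to 96 h. By this measure hepatocytes were above it at 24 h and 96 h and close to it in the 3 other libraries. Scaled to hepatocyte Alb, Apoa1 and Ttr, free RNA would give Tgfbr2 30.9 CPM at 24 h, above the measured level, and 19.8 at 96 h. Hepatocytes were chosen on these same genes, and the scaling multiplied free RNA by 2.33 at 24 h and 1.83 at 96 h. It therefore cannot tell what part free RNA had in the hepatocyte levels. Unscaled, free RNA held Acvr2a at 18.9 CPM in the control, above the hepatocytes there, and at 5.74 to 6.27 elsewhere. Scaled by TMM factors rather than by total UMIs, the median of all genes at P14 moved from -0.26 to 0.08 and the P14 Tgfbr2 difference was within 2-fold.

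The P14 and 96 h hepatocytes were compared directly, because Inhba was high in both. Inhbb and Inhbc (2.05-fold, 1.92 to 2.20) were at least 2-fold higher at P14, against 4.32% of genes, and Tgfbr2 was 3.89-fold (3.32 to 4.55) higher at 96 h, against 10.4% lower at P14. The high Inhba of the 2 libraries thus came with opposite levels of Inhbb, Inhbc and Tgfbr2.

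Hepatocytes differ in function along the axis of the liver lobule, from the portal vein to the central vein. In each library hepatocytes were ranked by a score of 8 pericentral against 8 periportal genes, none of them a member, and the top and bottom terciles were compared (702 cells each at P14, then 308, 390, 239 and 257). Because the score was cut within each library, a tercile is a range of scores and its limits differ between libraries. Inhba was higher in the periportal tercile in all 5 libraries. Its periportal and pericentral levels were 44.5 and 25.4 CPM at P14, 16.0 and 6.26 in the control, 15.1 and 4.90 (24 h), 19.1 and 9.75 (48 h), and 60.8 and 19.4 (96 h). Its periportal excess was 1.75-fold (1.58 to 1.95) at P14, 2.55-fold (1.64 to 4.06) in the control, 3.08-fold (2.03 to 4.83) at 24 h, 1.96-fold (1.45 to 2.68) at 48 h and 3.14-fold (2.48 to 4.01) at 96 h. In the order of P14, control, 24 h, 48 h and 96 h, 1.39%, 1.26%, 1.13%, 1.66% and 1.53% of genes were at least 2-fold higher in the periportal tercile, and 28.6%, 9.76%, 12.3%, 19.4% and 9.96% had an interval on that side.

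**Figure D2:**
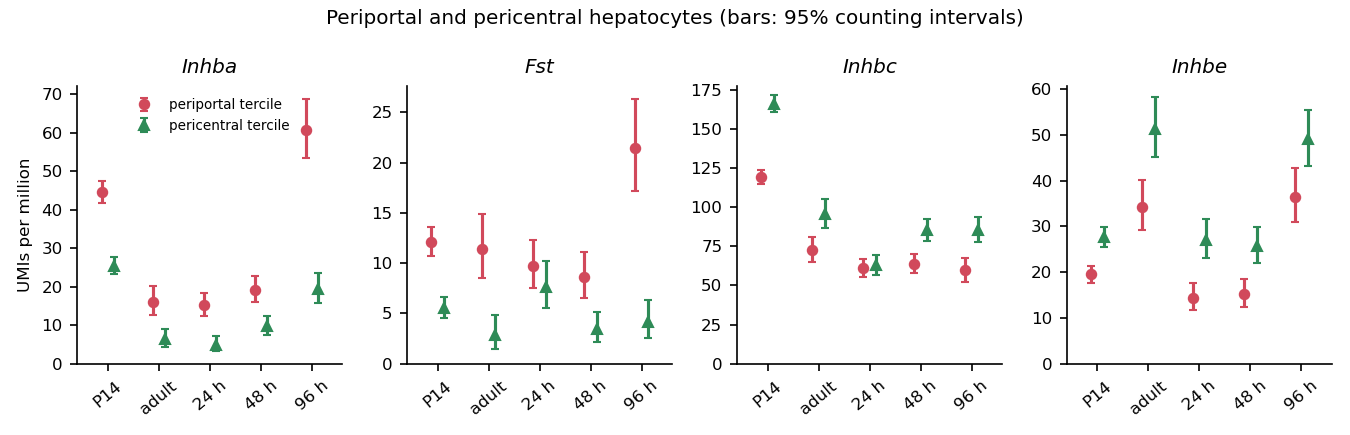
Levels of Inhba, Fst, Inhbc and Inhbe in the periportal (circles) and pericentral (triangles) terciles of hepatocytes of each library, in CPM with 95% counting intervals as bars. Inhba and Fst are higher in the periportal tercile of each library and Inhbc and Inhbe in the pericentral one, with intervals that overlap at 24 h for Fst and Inhbc.

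Fst had the same orientation. Its periportal and pericentral levels were 12.1 and 5.53 CPM at P14, 11.4 and 2.81 in the control, 9.69 and 7.61 at 24 h, 8.61 and 3.45 at 48 h and 21.4 and 4.15 at 96 h. The excess was 4.05-fold (2.17 to 8.10) in the control and 5.16-fold (3.17 to 8.74) at 96 h, and at 24 h its interval included equality (1.27-fold, 0.859 to 1.90). Activin A subunit and follistatin mRNA were thus both on the periportal side in the control, and both at their highest in the periportal tercile of the 96 h library. Inhbe ran the other way, with a pericentral excess of 1.42-fold (1.25 to 1.61) at P14, 1.50-fold (1.22 to 1.84) in the control, 1.88-fold (1.45 to 2.44) at 24 h, 1.69-fold (1.32 to 2.18) at 48 h and 1.34-fold (1.09 to 1.66) at 96 h. Genes with an interval on the pericentral side were 15%, 15.7%, 21.2%, 12.4% and 25.3% of those tested. Inhbc also leaned to the pericentral side, by 1.32-fold to 1.44-fold, except at 24 h, where its interval included equality (1.03-fold, 0.893 to 1.19). Inhbb at P14 was 1.55-fold (1.40 to 1.71) higher in the pericentral tercile, 46.2 against 29.8 CPM. Of the receptors, Tgfbr2 at 24 h was 1.38-fold (1.08 to 1.76) higher in the pericentral tercile and every other receptor interval included equality.

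The differences from the control were also read within 1 tercile at a time, chosen after the data were seen. From P14 to 96 h the periportal cut lay at scores of -0.27, -2.92, -1.27, -0.63 and -3.94. The pericentral cut lay at 1.25, -0.94, 0.73, 1.16 and -1.31. These ratios therefore set unlike ranges of scores side by side. Inhba at 96 h was 3.81-fold (2.93 to 5.02) above the control in the periportal tercile and 3.09-fold (2.03 to 4.86) in the pericentral one. Inhbe at 24 h was below the control in both, 2.39-fold (1.84 to 3.10) periportally and 1.90-fold (1.55 to 2.34) pericentrally, and at 48 h by 2.26-fold and 2.00-fold. Fst in the pericentral tercile, where the control rested on 13 UMIs, was 1.97-fold (1.11 to 3.81) above the control at P14, 2.71-fold (1.44 to 5.48) at 24 h and 1.48-fold (0.707 to 3.21) at 96 h. In the periportal tercile it was 1.06-fold (0.786 to 1.46), 0.852-fold (0.584 to 1.25) and 1.88-fold (1.32 to 2.71) of the control at these times. Tgfbr2 at 24 h was 2.19-fold (1.59 to 3.05) of the control in the pericentral and 1.32-fold (0.971 to 1.82) in the periportal tercile, and at 96 h it was above the control in both, 2.02-fold (1.45 to 2.84) and 1.48-fold (1.06 to 2.08). Whether the terciles differed in these ratios was not tested.

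Hepatocytes with mRNA of at least 3 of 22 mitosis genes after thinning to 5000 UMIs were called mitosis-positive. They numbered 244 at P14, 168 at 24 h, 286 at 48 h and 55 at 96 h, and 4 in the control, too few to compare. Fst was higher in them in 3 of these 4 libraries. At P14 it was at 15.5 CPM in mitosis-positive and 6.85 in other hepatocytes (2.27-fold, 1.82 to 2.81), at 24 h at 14.1 and 7.85 (1.80-fold, 1.27 to 2.52) and at 48 h at 7.18 and 3.04 (2.36-fold, 1.55 to 3.66). At 96 h the levels were 12.4 and 12.6 CPM (0.986-fold, 0.539 to 1.68). At least 2-fold higher in mitosis-positive cells were 8.21% (P14), 5.98% (24 h), 5.49% (48 h) and 8.21% (96 h) of genes, and Fst was among them at P14 and 48 h.

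**Figure D3:**
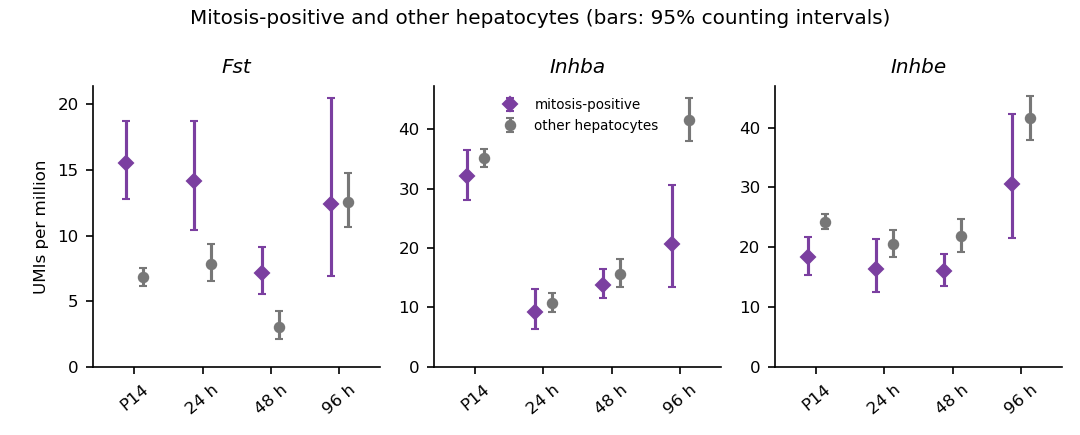
Levels of Fst, Inhba and Inhbe in mitosis-positive (diamonds) and other (circles) hepatocytes of 4 libraries, in CPM with 95% counting intervals as bars. Fst is higher in mitosis-positive cells at P14, 24 h and 48 h and level at 96 h, where Inhba is at 20.7 in mitosis-positive and 41.5 in other cells.

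For Inhbc in these 4 libraries and Inhbb at P14 the interval of mitosis-positive over other cells included equality, with 137 against 145 CPM for Inhbc and 34.6 against 38.9 for Inhbb at P14. Whether the subunits differed from Fst in this was not tested. Inhba at 96 h was lower in mitosis-positive hepatocytes, 20.7 against 41.5 CPM, so that other cells were 2.01-fold (1.34 to 3.13) above them, and its intervals at P14, 24 h and 48 h included equality. Inhbe was lower in mitosis-positive cells at P14, 18.3 against 24.3 CPM (1.33-fold, 1.11 to 1.60), and at 48 h, 16.1 against 21.9 (1.36-fold, 1.11 to 1.68). Genes with an interval on the lower side were 10.8% (P14), 11.6% (24 h), 12.7% (48 h) and 8.95% (96 h). Mitosis-positive cells were deeper at 24 h (median 25854 against 18780 UMIs), 48 h (41631 against 33425) and 96 h (29160 against 21443) and shallower at P14 (36742 against 39164), and the part of depth in these differences was not tested.

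Endothelial barcodes numbered 58 (P14), 79 (control), 181 (24 h), 66 (48 h) and 99 (96 h). Of them 18, 5, 13, 8 and 5 also met the hepatocyte rule and held 63.1% of the endothelial UMIs at P14 and 20.6% to 42.8% in the other libraries, so the levels below leave them out (40, 74, 168, 58 and 94 barcodes, with median depths from 1791.5 to 2855.5 UMIs) and those with them follow where they differ. All 7 endothelial markers that the rule did not use were present, at a summed 3290 to 6670 CPM. Other cells' RNA was present too. Hepatocyte markers summed to 1227, 8812, 2269, 1076 and 3139 CPM from P14 to 96 h. The barcodes read as free RNA held a mean of 466, 1328, 670, 290 and 795 UMIs each in the same order. Median depths of the endothelial barcodes were 2855.5, 1791.5, 1853.5, 2830.5 and 1836.5 UMIs, so free RNA came closest to them in the control. The control's mean also lay above the lower UMI limit of the endothelial rule. The part of free RNA in the differences from the control was not tested beyond subtracting it and scaling to endothelial markers. Of 8 macrophage markers, only C1qa and C1qb had UMIs at 24 h and 48 h, with sums of 531 and 548 against 65.7 to 98.8 in the other libraries, while Clec4f, Vsig4, Cd5l, Timd4, Adgre1 and Csf1r were at 0 in both. Neutrophil markers stood at 162 and 163 at 24 h and 48 h against 0 to 14.6, and erythroid markers at 6545 at 48 h against 58.5 to 642.

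In endothelial barcodes Inhbb and Tgfbr2 were both high at 24 h and 48 h after hepatectomy. Inhbb was at 239 CPM at 24 h (108 UMIs) and 175 at 48 h (45 UMIs), against 31.5 in the control (6 UMIs), 26.9 at P14 and 47.6 at 96 h. The 24 h level was 7.58-fold (3.37 to 21.1) and the 48 h level 5.54-fold (2.36 to 15.9) above the control, and P14 (0.852-fold, 0.271 to 2.91) and 96 h (1.51-fold, 0.535 to 4.84) did not differ from it beyond counting error. Of these Inhbb UMIs 89 at 24 h and 42 at 48 h lay in barcodes with C1qa or C1qb mRNA, and without those barcodes the 48 h interval included equality (3.62-fold, 0.485 to 27.0). Leaving those barcodes out also took the endothelial marker UMIs from 2241 to 583 at 24 h and from 1717 to 251 at 48 h. Of the Tgfbr2 UMIs given next, 117 at 24 h and 109 at 48 h lay in them. Tgfbr2 was at 345 CPM at 24 h (156 UMIs) and 474 at 48 h (122 UMIs), against 142 in the control (27 UMIs), 77.6 at P14 and 168 at 96 h. It was 2.43-fold (1.61 to 3.81) above the control at 24 h and 3.34-fold (2.19 to 5.27) at 48 h, and not apart from it at 96 h (1.19-fold, 0.722 to 1.98). By 96 h both were lower again: 48 h was 3.68-fold (1.95 to 7.43) above 96 h for Inhbb and 2.82-fold (1.99 to 4.04) for Tgfbr2, in a comparison where 6.16% of genes were so. Without the barcodes with C1qa or C1qb, Inhbb was at 65.5 CPM (13.5 to 191) at 48 h and 32.9 (13.2 to 67.8) at 96 h. Tgfbr2 was then at 284 (151 to 485) and 155 (107 to 218), so the 48 h and 96 h intervals overlapped for both. Inhbb and Tgfbr2 were the only members of the 8 that were at least 2-fold higher than the control with an interval above 1 at 24 h or 48 h, against 6.64% and 8.43% of genes, and no member was so at P14 or 96 h, against 10.7% and 3.54%. Tgfbr2 at P14 was lower with an interval that left out equality but within 2-fold, the control being 1.83-fold (1.03 to 3.26) above it. Without the barcodes with C1qa or C1qb, Tgfbr2 at P14 was 0.618-fold (0.300 to 1.28) of the control. With macrophage, neutrophil and erythroid markers barred it was 1.90-fold (0.739 to 5.46), and both intervals included equality. No member was at least 2-fold lower with an interval below 1 in any of the 4 comparisons, against 9.62% (P14), 7.11% (24 h), 8.31% (48 h) and 4.84% (96 h).

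**Figure D4:**
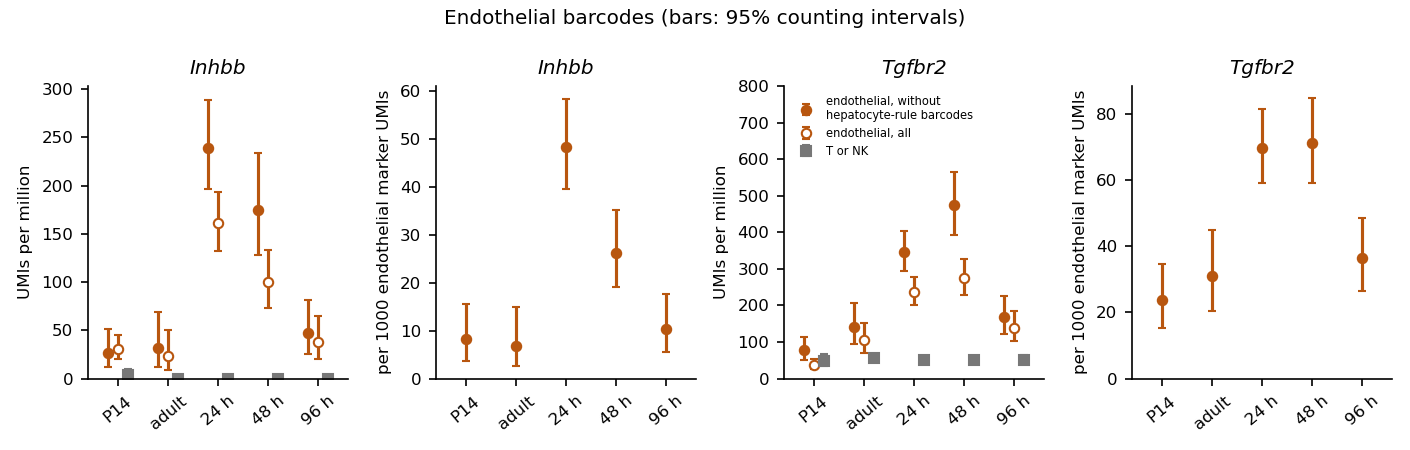
Inhbb and Tgfbr2 in endothelial barcodes of the 5 libraries, in CPM (without hepatocyte-rule barcodes, filled; all, open; T or NK barcodes, squares) and per 1000 UMIs of 7 endothelial markers (without hepatocyte-rule barcodes), with 95% counting intervals as bars. Both are highest at 24 h and 48 h, where Inhbb is at 239 and 175 CPM and Tgfbr2 at 345 and 474.

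With the hepatocyte-rule barcodes included, Inhbb and Tgfbr2 were again past 2-fold with an interval above 1 at 24 h and 48 h, among 6.06% and 5.91% of genes. Acvr2b (24 h) and Inhbe (48 h) were then lower with an interval below 1, among 6.89% and 6.08%. At P14 Inhba and Inhbc were higher and Tgfbr2 lower, among 6.82% and 10.8%, in a class that then held mostly hepatocyte-rule UMIs, and no member was apart at 96 h (4.16% of genes higher, 4.07% lower). By fold alone, 3 members were higher and 2 lower at P14 (17.6% and 19.1% of genes), 2 and 3 at 24 h (15.8% and 13.9%), 3 and 2 at 48 h (18.1% and 14.8%) and 1 and 1 at 96 h (16.4% and 13.2%). Inhbb was then at 30.9, 23.3, 161, 99.9 and 37.7 CPM from P14 to 96 h, 6.91-fold (3.07 to 19.2) above the control at 24 h and 4.29-fold (1.83 to 12.3) at 48 h. Tgfbr2 was at 37.5, 105, 237, 275 and 139, which is 2.27-fold (1.50 to 3.55) and 2.63-fold (1.72 to 4.15) above the control. Per 1000 UMIs of the 7 endothelial markers, Inhbb gave 8.17, 6.86, 48.2, 26.2 and 10.3 and Tgfbr2 23.6, 30.9, 69.6, 71.1 and 36.3. In barcodes with neither the hepatocyte rule nor a C1qa or C1qb UMI (31, 67, 91, 24 and 81), Inhbb was at 28.1, 18.1, 117, 65.5 and 32.9 CPM, resting on 3 UMIs in the control, 19 at 24 h and 3 at 48 h, and Tgfbr2 at 63.3, 102, 240, 284 and 155. Against the control, Inhbb in these barcodes was 6.46-fold (1.90 to 34.1) at 24 h. At 48 h its interval included equality (3.62-fold, 0.485 to 27.0), on too few UMIs to settle whether the difference held. Tgfbr2 was 2.34-fold (1.29 to 4.41) at 24 h and 2.77-fold (1.24 to 6.05) at 48 h. With neutrophil and erythroid markers barred as well, 50 barcodes at 24 h gave 123 for Inhbb and 357 for Tgfbr2. The 6 barcodes left at 48 h held no Inhbb UMI among 11986, which allows up to 250 CPM. Lymphocytes of the T or NK type, which should lack Inhbb, held 3 Inhbb UMIs at P14 and none elsewhere, and held Tgfbr2 at 49.0 to 56.1 CPM in every library. Endothelial Tgfbr2 was 2.53-fold (1.63 to 3.77) above theirs in the control, 6.97-fold (5.24 to 9.35) at 24 h and 9.46-fold (7.40 to 12.1) at 48 h. Free RNA at the share that Alb, Apoa1 and Ttr show would give Inhbb at most 2.76 CPM, at P14, and 0.0443 to 0.446 elsewhere.

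Shares of barcodes gave a less certain picture. Without thinning, 8.11% of control, 32.1% of 24 h and 34.5% of 48 h endothelial barcodes had an Inhbb UMI, and 21.6%, 38.1% and 51.7% a Tgfbr2 UMI. Thinned to 1000 UMIs, the Inhbb shares were 2.70%, 15.5% and 3.45%, so the 48 h share went against the summed level and no order was read from it. The thinned Tgfbr2 shares were 9.46%, 17.3% and 20.7%, beside 5.52%, 4.82% and 4.44% in T or NK barcodes, whose median depths were 6124, 4656 and 5908 UMIs.

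The endothelial cells at the central vein are known as a source of the Wnt signals that keep pericentral hepatocytes in their state. Endothelial barcodes with a UMI of Wnt2, Wnt9b or Rspo3 numbered 16, 16, 83, 41 and 24 from P14 to 96 h. At 24 h they held Inhbb at 298 CPM against 116 in the other 85 barcodes (2.55-fold, 1.51 to 4.58) and Tgfbr2 at 432 against 164 (2.62-fold, 1.69 to 4.24), and the share of genes at least 2-fold higher was 35.2% (P14), 21.9% (control), 19.9% (24 h), 43.7% (48 h) and 29.3% (96 h). Inhbb at 48 h was at 195 against 53.6 (3.65-fold), with an interval of 0.95 to 31.1. Tgfbr2 was higher in the positive barcodes at P14 (143 against 22.1), in the control (288 against 70.5) and at 48 h (527 against 161). Positive and other barcodes together held only 26 Tgfbr2 UMIs at P14 and 27 in the control, and 122 at 48 h. At 96 h the interval included equality (1.60-fold, 0.857 to 2.99). Positive barcodes were deeper, with a median of 3166 against 1396 UMIs at 24 h, and the part of depth was not tested.

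The other members were near the limit of detection in endothelial barcodes. Without the hepatocyte-rule barcodes, Acvr2a had 2 to 12 UMIs per library (10.5 to 29.3 CPM), Inhba 0 to 5, Inhbc 0 to 6, Inhbe 0 to 2, Fst 0 to 4 and Acvr2b 1 to 3. Free RNA alone would give Inhbc 55.4 CPM in the control's endothelial barcodes, where 15.8 was measured, so no expression of Inhbc was read there. No difference of these 6 genes from the control was past 2-fold with an interval that left out equality, and at this depth smaller ones were not detectable. Between 48 h and 96 h Inhbc went from 0 to 6 UMIs. With 3 counts as the limit of the 0 this is 1.88-fold, which leaves out the counting error of the 6. At 96 h free RNA would give 11.5 CPM and 21.9 was measured. The CPM of Tgfbr2 was lower in hepatocytes than in endothelial barcodes of every library, at 0.024 to 0.129 of the endothelial level, and 24 h hepatocytes held Inhbb at 0.00214 of it.

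For the members with at least 20 CPM in some library, the genes with the most similar course over the 5 hepatocyte libraries were found among 2681 that reached this level and had at least a 2-fold range. Likeness was the root mean square difference of centred log2 levels over 5 libraries. Nearest to Inhba were Gamt (0.16), a creatine synthesis enzyme, and Cldn1 (0.21), a tight junction protein, then Aadac, Ces2e and Mgmt. Nearest to Inhbb was the leptin receptor Lepr (0.17), then Hsd3b1, Sult2a2, Cyp2b13 and Peg3. Inhbc lay nearest to Eci2 (0.057), which acts in fatty acid oxidation, then Mst1, Spata2l, Ndufv1 and F11. Inhbe lay nearest to Abcd3 (0.053), a peroxisomal transporter, then Sec14l2, Eva1a, Kif1b and Acad8. Tgfbr2 lay nearest to Rasgrp2 (0.16), then Arhgef26, Amd1, Gstm4 and Map3k20. Fst, Acvr2a and Acvr2b did not reach the level.

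A list of 40 other genes of activin and TGF-beta signalling gives the surroundings. In hepatocytes 15 were tested at P14 and 14 at each time after surgery. Skil, a SMAD-binding repressor that the pathway itself induces, was at 32.8 CPM at P14, 10.6 in the control, 28.1 (24 h), 27.6 (48 h) and 11.8 (96 h). It was 3.10-fold (2.61 to 3.70), 2.66-fold (2.20 to 3.22) and 2.60-fold (2.16 to 3.15) above the control at P14, 24 h and 48 h. The genes named in the rest of the paragraph fell outside the naming rule and were chosen after their values were seen. Smad3, which carries the activin signal, was at 4.38, 11.2, 4.36, 5.47 and 6.55 CPM from P14 to 96 h and at least 2-fold lower at P14 and 24 h. Smad2, which carries it too, was at 9.17, 13.8, 20.3, 13.2 and 20.5 CPM. It was within 2-fold of the control throughout, and above it at 24 h and 96 h. Thus 1 was higher and 1 lower at P14 and at 24 h, 1 and 0 at 48 h and none either way at 96 h, with the shares of all genes as given above. Of the 7 ligands in the list none reached 5 CPM in any hepatocyte library, and Tgfb1 was at 1.28 to 2.70. The type I receptor Acvr1b was at 3.84 to 7.58 CPM and Tgfbr1, the partner of TGFBR2, at 10.8, 20.7, 23.4, 17.2 and 19.2.

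**Figure D5:**
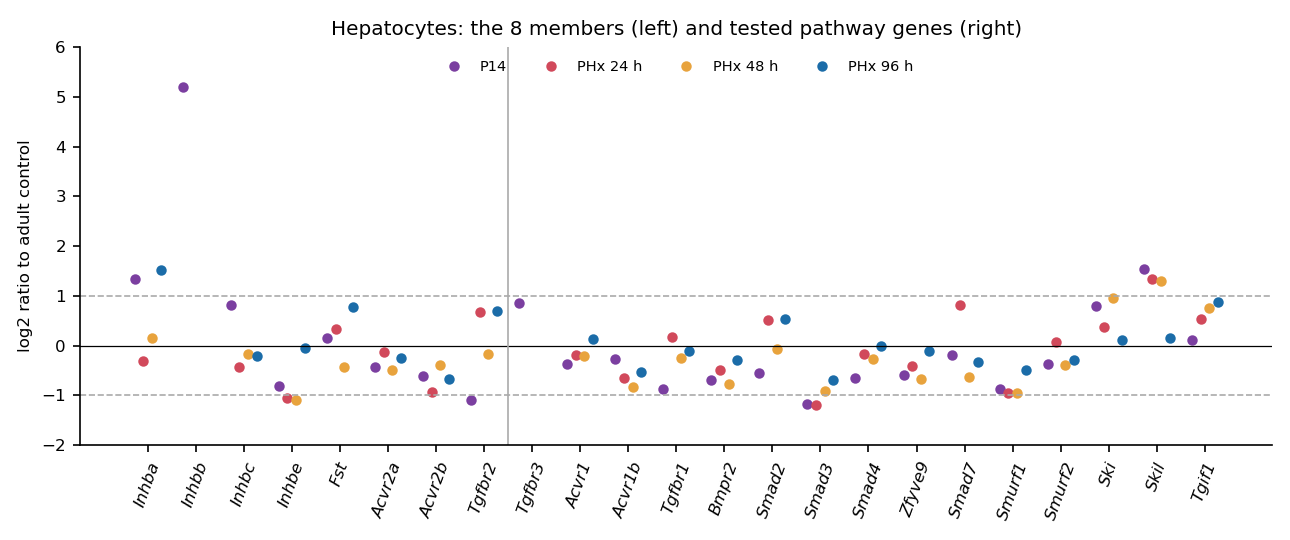
Log2 differences from the adult control in hepatocytes, after adding 1 CPM, for the 8 genes (left of the grey line) and the pathway genes tested in at least 1 comparison (right), with 1 point per library compared and dashed lines at 2-fold. Skil lies above 2-fold at P14, 24 h and 48 h, and Inhbe below 2-fold at 24 h and 48 h.

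In endothelial barcodes without the hepatocyte-rule ones, 23 to 25 of the 40 genes were tested. With an interval that left out equality, at least 2-fold differences from the control were 2 higher and 2 lower at P14, none at 24 h or 96 h, and 1 higher at 48 h, against 10.7% of genes higher and 9.62% lower at P14 and 8.43% higher at 48 h. Ltbp1, which holds latent TGF-beta in the matrix, had 68 UMIs at P14 and none in any other library. This is 12.9-fold above the control when 3 counts are taken as the control's limit, and the counting interval began at 10.2-fold. Fstl1, a follistatin-like secreted protein, had 27 UMIs at P14 and none in the control, 5.11-fold higher by the same limit, with a counting interval from 3.88-fold. Smad6, an inhibitory SMAD, and the co-receptor Tgfbr3 were lower at P14, with the control 3.27-fold (1.65 to 6.77) and 2.10-fold (1.21 to 3.68) above it. Mesenchymal cell markers summed to 203 CPM at P14 and 95.2 to 158 in the other libraries, and their part in the P14 levels of Ltbp1 and Fstl1 was not tested. Ski, a repressor of SMADs, was 2.08-fold (1.02 to 4.59) above the control at 48 h.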

How the data were processed

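Gene-by-barcode UMI counts of 5 single-cell libraries were deposited by the authors as raw matrices, with software version 3.0.2 per the file headers; the submitters' processing notes name bcl2fastq 2.17.1.14, Cell Ranger, Seurat 3.1 and the mm10 build, without roles. The counts were not normalised by the authors, and empty droplets were included. Barcodes were classed by the rules in the report, with no doublet removal in the main values, and the UMIs of each class were summed per library (13316829 to 64576753 in hepatocytes and 190312 to 451722 in endothelial barcodes without hepatocyte-rule ones). Sums were scaled to CPM, per 1000000 UMIs without the 13 mitochondrial genes. Levels carry exact Poisson intervals, ratios exact conditional binomial intervals and shares Clopper-Pearson intervals, all at 95%. UMIs count molecules rather than PCR copies; the limit for a count of 0 is 3 counts. Fold calls used log2 with 1 CPM added. Free RNA was the sum of barcode ranks 20001 to 60000, and whether these held no cell was not tested.

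The members and all lists were chosen with earlier results of these data known. Named were the 8 members, the 5 genes of most similar course, and pathway genes past 2-fold with at least 20 CPM in either library. Endothelial pathway genes were named only from barcodes without the hepatocyte-rule ones and with an interval that left out equality. Pathway genes named outside these rules are marked. One gene of the pathway list is not reported here. Of 31053 gene IDs 31011 matched GENCODE M21. Python 3.11.15, numpy 2.4.6, scipy 1.17.1, pandas 2.3.3 and edgeR 4.0.16 (TMM factors only) were used, and the ratio calls were tested on simulated data. Alternatives numbered 15 for hepatocytes and 13 for endothelial barcodes, 6 of them added after the data were seen (each outer tercile alone, leaving out hepatocytes that also met the neutrophil or erythroid rule, scaling to endothelial marker UMIs, and leaving out barcodes with C1qa or C1qb or with any macrophage, neutrophil or erythroid marker).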

Additional observations from a re-analysis of the deposited data

Results flagged for a closer look

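Barcodes with under 10% mitochondrial UMIs that otherwise met the hepatocyte rule were outside the main hepatocyte comparisons and entered the alternative with no lower mitochondrial limit. They numbered 124 at P14 and 150 in the adult control, and 1 of the control's and 2 of 684 at 96 h also met the endothelial rule. Inhba, Inhbb, Inhbc and Tgfbr2 were at least 2-fold above the control's level in those of P14 with an interval above 1, as were 12.4% of 9498 genes. Inhba was at 22.0 CPM against 3.82 (5.77-fold, 1.98 to 22.9), on 24 and 4 UMIs. Inhbb was at 16.5 CPM on 18 UMIs against none, 5.77-fold higher with 3 counts as the limit and with a counting interval from 4.23-fold. Inhbc was at 57.8 CPM against 22.0 (2.63-fold, 1.61 to 4.45). Tgfbr2 was at 18.4 CPM against 3.82 (4.81-fold, 1.61 to 19.3), on 20 and 4 UMIs, whereas it was lower at P14 in the hepatocytes. Markers of other cells differed in the same barcodes: neutrophil markers summed to 9139 CPM at P14 (4 of 4 present) and 5.73 in the control (2 of 4), T or NK markers to 463 and 169, and B cell markers to 420 and 117, while erythroid markers were higher in the control (31.2 and 201), and their part was not tested.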

How the results depend on the processing

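No paired analysis was possible because each group was 1 library. For the same reason no replicate could be left out. In hepatocytes no difference past 2-fold changed sign among 435 values over 29 results and 15 alternatives, and 91 values moved, meaning a log2 difference beyond its counting interval. Without a limit on size, 26 values changed sign. In endothelial barcodes 15 of 369 values were differences past 2-fold that changed sign, for Inhba, Inhbc, Inhbe and Fst and, in the smallest set of barcodes, Inhbb and Tgfbr2, and 31 moved. Without a limit on size, 38 values changed sign. Log2 differences over the alternatives ran from 0.95 to 2.04 for hepatocyte Inhba at P14, 1.09 to 2.24 at 96 h and 2.26 to 7.78 for Inhbb at P14. For Inhbe they ran from -1.21 to -0.81 at 24 h and -4.59 to -0.83 at 48 h, and for Tgfbr2 from -1.37 to -0.49 at P14. In endothelial barcodes they ran from 2.29 to 3.55 for Inhbb at 24 h and 0.77 to 2.40 and 0.78 to 2.62 for Tgfbr2 at 24 h and 48 h. Endothelial Inhbb at 48 h, from -3.40 to 2.59, was the only one of these that crossed 0. Its -3.40 came from 6 barcodes without an Inhbb UMI, where the median of all 9664 genes tested was also -3.40.

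Counts of members past 2-fold in hepatocytes, as above the control and below it, were 2 and 1 at P14, 0 and 1 at 24 h and at 48 h, and 1 and 0 at 96 h. The shares of all genes beside these are given above. Counts of the alternatives come without such shares, so they describe the members' values only. With 10% to 20% mitochondrial UMIs 1 was higher at 48 h (Inhba). With no lower mitochondrial limit 0 were lower at P14 and 2 at 24 h. With Alb, Apoa1 and Ttr at 5% or more, which left 47 control, 6 24 h and 2 48 h cells, 2 were higher and 3 lower at 24 h, 3 lower at 48 h and 2 higher at 96 h. None was lower at 24 h without the deepest 5% of cells, with each cell's own level averaged, after subtraction of free RNA, or with TMM factors, which also left 0 lower at P14. A pseudocount of 0.1 gave 2 lower at 24 h, and one of 10 gave 1 higher and 0 lower at P14 and 0 lower at 24 h and 48 h. In the pericentral tercile alone 0 were lower at P14 and at 48 h and 2 were higher at 24 h (Fst, Tgfbr2). Without hepatocytes that also met the neutrophil or erythroid rule 0 were lower at 24 h and 0 at 48 h.

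In endothelial barcodes with the hepatocyte-rule ones included, the counts past 2-fold were 3 and 2 at P14, 2 and 3 at 24 h, 3 and 2 at 48 h, and 1 and 1 at 96 h. The shares of all genes beside these are given above. Counts of the alternatives are by fold alone and come without such shares, so they describe the members' values only. At 2000 UMIs or more 2 were higher at 96 h. With 4 of 7 markers 2 were lower at 96 h and Inhba at 48 h was at -0.54. Without hepatocyte-rule barcodes 2 were higher at P14, 3 higher and 4 lower at 24 h, and 2 higher and 5 lower at 48 h. The 5 lower at 48 h had 0 or 1 UMI there and 1 to 3 in the control. With an interval that left out equality, 2 were higher and 0 lower at 24 h and at 48 h, and 0 either way at P14. Inhba at 48 h was then at -2.64 and Inhbc at P14 at -0.37. Without the deepest 5% 0 were lower at 96 h. Averaging each barcode's own level gave 5 lower at 24 h, 4 lower at 48 h and 2 higher and 0 lower at 96 h, with Fst at P14 at -1.22 and Inhba at 48 h at -0.92. A pseudocount of 10 gave 1 lower at P14 and at 48 h and 0 either way at 96 h. Subtracting free RNA gave 5 higher at P14, 1 lower at 48 h and 4 higher at 96 h, with Inhbe at 24 h at 2.24. Per endothelial marker UMI 1 was lower at P14 and 5 at 24 h and 48 h, with Inhba at 48 h at -2.64. Without barcodes holding C1qa or C1qb 1 was lower at P14 and 6 at 48 h, with Inhbc at P14 at -0.34, Inhbe at 24 h at 0.025 and Inhba at 48 h at -2.81. Without any macrophage, neutrophil or erythroid UMI, which left 6 barcodes at 48 h, 1 was higher and 4 lower there and 4 were higher and 0 lower at 96 h. Inhbb at 48 h was then at -3.40 on 0 UMIs, and the median of all genes there was also -3.40. Tgfbr2 at P14 was at 0.92, Inhbc at P14 at -0.26, Fst at P14 at -3.40 and Inhbe at 24 h at 0.33. The causes of these changes were not tested. Endothelial sums of 190312 to 451722 UMIs limit what can be read of the members, Inhbb included, whose control level rests on 6 UMIs.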
